A study of Homo sapiens with 5 samples.

Results

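The genes described here were 10 collagen genes outside the fibrillar class: COL6A1, COL6A2 and COL6A3 (collagen VI), COL8A1 and COL8A2 (collagen VIII), COL7A1 (collagen VII), COL12A1, COL14A1 and COL16A1 (collagens XII, XIV and XVI) and COL13A1 (collagen XIII). They were chosen by name from the 20033 protein-coding genes of GENCODE release 44 on the hg38 build. A TEAD4 peak was counted for a gene when its summit, the base with the highest signal in the peak, lay in the gene body or within 50 kb of any annotated transcription start site (TSS) of that gene. By this rule 27 of the 21113 peaks of the list belonged to the 10 genes, and no peak was counted for more than 1 of them.

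TEAD4 chromatin immunoprecipitation followed by sequencing (ChIP-seq) was performed on LX-2 cells, an immortalised human hepatic stellate cell line, which had received only the solvent DMSO. There were 3 TEAD4 samples and 2 input samples, and the authors kept replicates 1 and 3, found concordant by the irreproducible discovery rate (IDR, a measure of how well peak ranks repeat between replicates), to make a single list of peaks. All values below come from this list of 1 cell line in 1 condition, which holds no value per replicate and no read depth, so no spread between replicates could be given and no test was made. A list of binding sites holds no expression, so the cell type could not be checked against its markers and nothing below says whether a gene was transcribed.

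TEAD4 is a DNA-binding protein of the Hippo pathway that recruits the co-activator YAP1, and it recognises the sequence ACATTCC, or GGAATGT when read on the other strand. Activated hepatic stellate cells are the main source of collagen in the scarring liver. Collagen VI forms beaded filaments around cells, collagen VIII builds short-chain networks, and collagen VII makes the anchoring fibrils under epithelia. The fibril-associated collagens with interrupted triple helices (FACIT), to which collagens XII, XIV and XVI belong, attach to fibrils or other matrix instead of forming fibrils themselves, and collagen XIII is a transmembrane protein at cell adhesion sites.

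TEAD4 peaks were found at 7 of the 10 genes (70%), while 11252 of all 20033 protein-coding genes (56.2%) had a peak by the same rule. COL12A1 had the most, with 8 peaks, followed by COL6A3 with 5. COL7A1, COL8A1, COL8A2 and COL16A1 had 3 each, and COL13A1 had 2. No peak was counted for COL6A1, COL6A2 or COL14A1. The median was 3 peaks per gene, against 1 over all protein-coding genes, among which the highest count was 32. Because long genes have wide windows, the number was also set against the window, that is the gene body together with 50 kb around each TSS. The median over the 10 genes was 1.72 peaks per 100 kb of window, against 0.666 over all protein-coding genes. COL12A1 was also the densest of the 10, at 3.67 peaks per 100 kb, and COL13A1, with a window of 252.2 kb, was the sparsest of the 7 genes with a peak, at 0.793 per 100 kb. Each count was also set against protein-coding genes with a window within 1.25 times the gene's own in either direction. At least as many peaks were found at 4.06% of these for COL12A1, 10.8% for COL6A3, 14.5% for COL8A2 and 17.7% for COL7A1. For COL16A1, COL8A1 and COL13A1 the shares were 20.7, 30.6 and 51.5%.

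**Figure D1:**
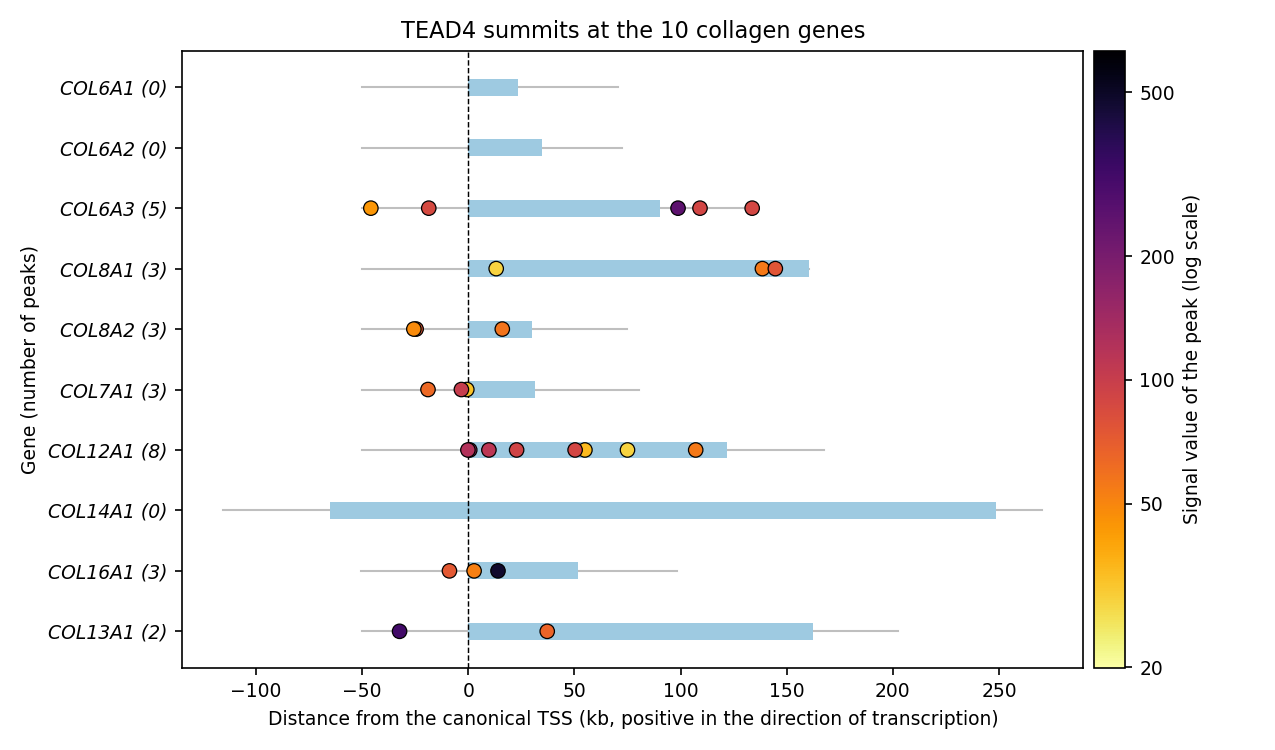
Position of each TEAD4 summit relative to the canonical TSS of its gene, in kb along the direction of transcription, with blue bars for gene bodies, grey lines for the windows searched and colour for the signal value on a log scale. All 8 COL12A1 summits lie in the gene, all 5 COL6A3 summits lie outside it, and the windows of COL6A1, COL6A2 and COL14A1 are empty.

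Summits lay both inside and outside the genes. Of the 27, 15 were inside the gene body and 12 outside, 9 of them upstream and 3 downstream. Measured on the canonical transcript of each gene, 12 of the 15 were intronic, 2 were exonic and 1 lay in the gene just outside that transcript. Only 2 of the 12 were in intron 1. From the nearest TSS of the gene, 5 summits were within 2.5 kb, 8 were at 2.5 to 10 kb and 14 were farther than 10 kb. The 5 near a TSS were shared among 3 genes, COL7A1, COL12A1 and COL16A1, and 16.6% of all protein-coding genes had a summit within 2.5 kb of a TSS. Other genes lay close to several of the summits. For 20 of the 27 the nearest TSS of a protein-coding gene belonged to the collagen gene and for 7 to another gene, and 12 lay in the window of no other protein-coding gene.

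The strength of a peak is given by its signal value, the enrichment measure of the authors' peak caller, whose name and unit are not given in the sources used here, so that values were only compared within the list. The 27 signal values ran from 28.9 to 481.1 with a median of 73.9 (95% order-statistic interval 55.6 to 92.5). The whole list had a median of 68.1, which lay inside that interval. Above the list's median were 15 of the 27 peaks (55.6%, 95% Wilson interval 37.3 to 72.4%). The highest possible IDR score of 1000 was given to 21 of the 27 (77.8%, interval 59.2 to 89.4%), against 76.1% of the whole list. Intervals here cover counting error only, and peaks of the same gene share their locus and are not independent. Most peaks at these genes lay in the middle range of the list, and 3 stood well above the others, 1 each at COL16A1 (481.1), COL13A1 (315.2) and COL6A3 (249.1). The first 2 were above the 95th percentile of the list (262.8), and that of COL16A1 was also above the 99th (441.6).

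**Figure D2:**
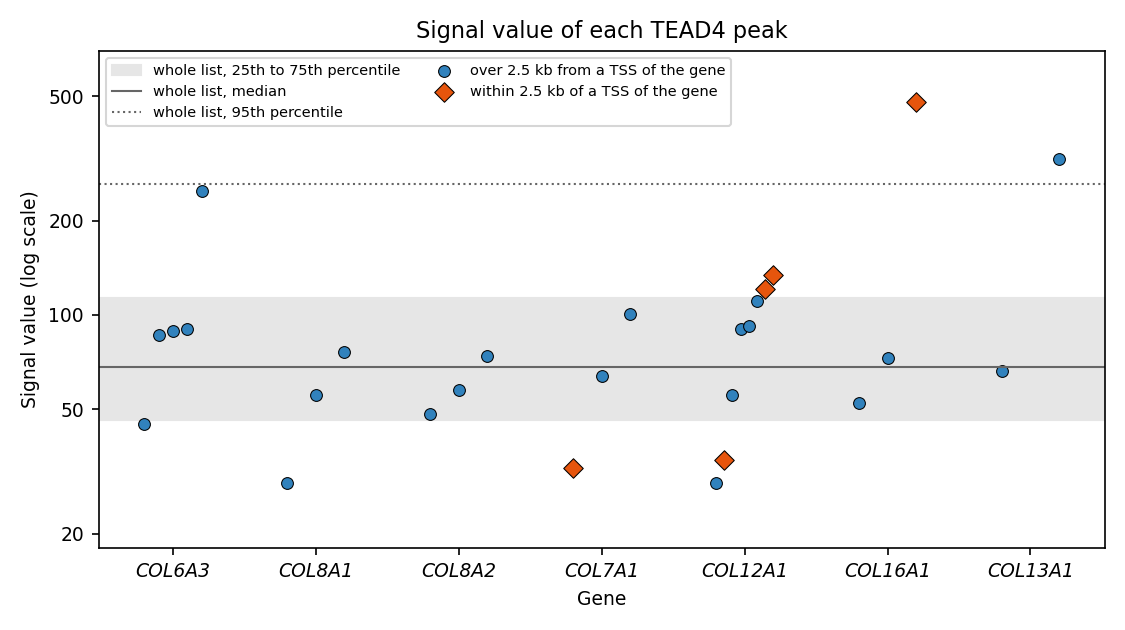
Signal value of each of the 27 peaks (log axis) by gene, with orange diamonds for summits within 2.5 kb of a TSS of the gene and blue circles for the others. The grey band spans the 25th to 75th percentile of the whole list (46.1 to 113.6), the solid line is its median (68.1) and the dotted line its 95th percentile (262.8), which only a COL16A1 and a COL13A1 peak exceed.

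Collagen VI is assembled from an α1, an α2 and an α3 chain, and the 3 genes differed in their peaks. COL6A1 (chr21:45981770-46005050, forward strand) and COL6A2 (chr21:46098112-46132848, forward strand) are neighbours that encode the α1 and α2 chains. Their windows share 4.38 kb and together cover 238.8 kb without a summit. The nearest peak (chr21:45865316-45865759) lay 116.2 kb upstream of a COL6A1 TSS, with a signal value of 19.98, below the 5th percentile of the list (24.1). Chromosome 21 held 237 peaks in all. Among protein-coding genes with a window within 1.25 times that of COL6A1 in either direction, 51.9% had a peak.

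COL6A3 (chr2:237324003-237414328, reverse strand), which encodes the α3 chain whose C-terminal end is released as endotrophin, had 5 peaks, all outside the gene. At least 5 peaks were found at 7.19% of all protein-coding genes and at 10.8% of those with a window within 1.25 times that of COL6A3 in either direction. Upstream, 1 peak (chr2:237432552-237432995) had its summit 18.4 kb from the nearest TSS with a signal value of 86.0, inside the long noncoding RNA gene ENSG00000222032. The other upstream peak (chr2:237459823-237460266) had a signal value of 44.8 and lay 45.7 kb from COL6A3 but 25.4 kb from a TSS of MLPH, which encodes melanophilin. The weaker of the pair was therefore nearer to another gene. Downstream, the 3 summits were 14.8, 25.2 and 49.7 kb from an internal TSS near the 3′ end of COL6A3, the start of a retained-intron transcript, and 98.8, 109.1 and 133.7 kb from the canonical TSS. They were in the window only through that internal start. Their signal values were 249.1 (chr2:237315244-237315530), 90.2 (chr2:237304794-237305237) and 88.6 (chr2:237280221-237280664). The first, both the strongest and the nearest peak of COL6A3, ranked 1193 in the list, in its upper 5.65%.

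The 201 bases around the summit of this strongest COL6A3 peak (chr2:237315265-237315465, hg38, forward strand) are shown. They carry the 6-base core of the TEAD motif, CATTCC or GGAATG, without the A in front that completes ACATTCC. In this and the other sequences below, capitals mark the TEAD motif, its 6-base core or the AP-1 motif (TGACTCA or TGAGTCA), and all are read on the forward strand of the hg38 reference, whatever the strand of the gene. The core was centred 20.5 bp from the summit.
COL6A3, strongest peak: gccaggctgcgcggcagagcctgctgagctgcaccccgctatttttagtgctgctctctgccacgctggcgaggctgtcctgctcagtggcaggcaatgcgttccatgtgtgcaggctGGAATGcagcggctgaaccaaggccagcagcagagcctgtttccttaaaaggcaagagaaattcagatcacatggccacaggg

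Collagen VIII is made of the α1 and α2 chains of COL8A1 and COL8A2, and both genes had 3 peaks of low to middling strength. COL8A1 (chr3:99638475-99799226, forward strand) had all 3 in introns. The nearest to a TSS (chr3:99651527-99651970, 13.1 kb, intron 1) had a signal value of 28.9, the lowest of the 27. Toward the other end of the gene, in intron 2, a peak with a signal value of 55.6 (chr3:99776913-99777356) and one with 76.1 (chr3:99783000-99783443) lay 70.1 and 76.2 kb from the nearest TSS of COL8A1. These last summits were closer to a TSS of the gene CMSS1, at 40.7 and 34.6 kb. The strongest was the only one of the 27 with more than 1 full TEAD motif within 100 bp of the summit (list 1.81%). Its window (chr3:99783122-99783322) holds this pair, 36 and 3 bp from the summit on the same side. Both motifs lay on the reverse strand, 33 bp apart.
COL8A1, strongest peak: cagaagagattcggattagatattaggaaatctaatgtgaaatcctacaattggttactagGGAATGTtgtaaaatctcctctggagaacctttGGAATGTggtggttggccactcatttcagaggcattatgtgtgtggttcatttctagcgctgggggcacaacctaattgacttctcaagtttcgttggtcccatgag

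COL8A2 (chr1:36095239-36125222, reverse strand) had 1 peak in intron 2 (chr1:36108973-36109416, signal value 57.4), which was the nearest to a TSS of the gene at 8.95 kb. The other peaks lay upstream and inside TRAPPC3, which encodes a subunit of a vesicle-tethering complex. The stronger of them (chr1:36149562-36150005, signal value 73.9) was 24.6 kb from COL8A2 but 270 bp from a TSS of TRAPPC3. The weaker (chr1:36150631-36151074, signal value 48.1), 1069 bp away, was 1.34 kb from that gene. The strongest COL8A2 peak was thus a promoter peak of its neighbour. Its window (chr1:36149684-36149884) held neither the TEAD core nor the AP-1 motif.
COL8A2, strongest peak: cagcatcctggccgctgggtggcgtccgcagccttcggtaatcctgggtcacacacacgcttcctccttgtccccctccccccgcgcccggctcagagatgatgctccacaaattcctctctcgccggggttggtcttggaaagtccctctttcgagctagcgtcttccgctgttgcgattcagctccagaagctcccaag

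COL7A1 (chr3:48564073-48595329, reverse strand) encodes the chain of collagen VII, the component of anchoring fibrils. Its 3 peaks were all upstream, within a span of 18.3 kb. The nearest (chr3:48595794-48596237) had its summit 687 bp before the TSS and a signal value of 32.4, among the weakest of the 27. The next (chr3:48598341-48598784), 3.23 kb upstream, was the strongest of the gene at 100.8, and the farthest (chr3:48614073-48614516), 18.97 kb upstream, had 63.6. The last 2 were nearer to a TSS of UQCRC1, a subunit of mitochondrial respiratory complex III, at 2.28 and 3.32 kb. The peak closest to COL7A1 was therefore the weakest, and those next to UQCRC1 were stronger. The windows of the nearest peak (chr3:48595916-48596116) and of the strongest (chr3:48598463-48598663) differ in that only the latter carries an AP-1 motif, centred 95 bp from its summit.
COL7A1, nearest peak: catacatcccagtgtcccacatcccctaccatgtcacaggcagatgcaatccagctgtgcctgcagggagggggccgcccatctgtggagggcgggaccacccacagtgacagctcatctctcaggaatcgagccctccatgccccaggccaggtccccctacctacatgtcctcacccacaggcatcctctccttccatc
COL7A1, strongest peak: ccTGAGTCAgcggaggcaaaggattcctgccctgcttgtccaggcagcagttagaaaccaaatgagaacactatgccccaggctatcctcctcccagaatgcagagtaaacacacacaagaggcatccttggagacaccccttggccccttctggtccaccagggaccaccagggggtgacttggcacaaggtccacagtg

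Among the FACIT genes, COL12A1 and COL16A1 together held 11 peaks and COL14A1 none. COL14A1 (chr8:120059780-120373573, forward strand), which encodes collagen XIV, had the widest window of the 10 genes, 385.7 kb, and no peak in it. The nearest peak, with a signal value of 56.4, lay 309.1 kb from a TSS on the downstream side. Of the 763 protein-coding genes with a window at least as wide, 184 (24.1%) likewise had no peak.

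COL12A1 (chr6:75084326-75206267, reverse strand), whose product decorates the surface of fibrils, had all of its 8 summits within the gene, spread over 107.3 kb. At least as many peaks were found at 2.07% of all protein-coding genes and at 4.06% of those with a window within 1.25 times its own in either direction. No other protein-coding gene had the nearest TSS for any of the 8. Near its start, a pair of summits 863 bp apart lay on either side of the canonical TSS. One (chr6:75205258-75205468) was in intron 1, 467 bp from the nearest TSS, with the highest signal value of the gene, 134.5. The other (chr6:75206105-75206325) was 49 bp from a TSS and 165 bp upstream of the canonical one, with 120.9. Together with the peak in intron 2 (chr6:75196245-75196367), 9.72 kb from the canonical TSS, with 110.9, these were the strongest of the gene.

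Deeper in COL12A1 the values were lower. Summits in exon 10 (chr6:75183059-75183502) and exon 16 (chr6:75155507-75155950) had signal values of 92.5 and 89.9. That in intron 21 (chr6:75150882-75151325) had 34.3, although it lay 1.09 kb from an internal TSS and so counted as the third promoter peak of the gene. Those in intron 35 (chr6:75130838-75131281) and intron 58 (chr6:75098712-75099155) of the 66-exon canonical transcript had 29.1 and 55.6. All 5 of these were below the 3 nearest the start. The exon 16 peak was the only one of COL12A1 with a full TEAD motif, centred 15 bp from the summit. The windows of the peaks at the start (chr6:75205255-75205455 and chr6:75206118-75206318) and of the exon 16 peak (chr6:75155629-75155829) show the contrast between a strongest peak without the core, a peak with the core 0.5 bp from the summit and a peak with the full motif.
COL12A1, strongest peak: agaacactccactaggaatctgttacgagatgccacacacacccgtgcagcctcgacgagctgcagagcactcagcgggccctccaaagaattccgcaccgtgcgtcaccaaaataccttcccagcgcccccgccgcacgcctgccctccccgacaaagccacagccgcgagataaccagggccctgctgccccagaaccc
COL12A1, nearest peak: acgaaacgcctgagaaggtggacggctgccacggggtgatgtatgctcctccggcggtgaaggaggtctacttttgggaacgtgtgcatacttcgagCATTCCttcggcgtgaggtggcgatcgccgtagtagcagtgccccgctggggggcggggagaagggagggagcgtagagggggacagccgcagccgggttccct
COL12A1, exon 16 peak: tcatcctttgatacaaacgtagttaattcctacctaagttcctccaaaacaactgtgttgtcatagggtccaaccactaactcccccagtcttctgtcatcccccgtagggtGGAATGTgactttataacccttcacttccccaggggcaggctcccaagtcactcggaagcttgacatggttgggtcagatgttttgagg

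COL16A1 (chr1:31652263-31704319, reverse strand), which encodes collagen XVI, had the strongest peak of the 10 genes. This peak (chr1:31689774-31690183) had a signal value of 481.1, rank 165 of the 21113, in the upper 0.782% of the list. Its summit lay in intron 22 of 71 exons, 14.0 kb inside the gene from the canonical TSS and 47 bp upstream of an internal TSS, the start of a transcript without a defined coding sequence. The promoter count of COL16A1 rests on that internal start alone. The other peaks were much weaker, at 52.4 in intron 2 (chr1:31701041-31701484, 2.75 kb from the TSS) and 72.9 upstream (chr1:31712657-31713100, 8.56 kb). A further peak with a signal value of 51.3 was just outside the window, at 51.2 kb. In the window of the strongest peak (chr1:31689915-31690115) an AP-1 motif was centred 1 bp from the summit and the 6-base TEAD core 27.5 bp from it.
COL16A1, strongest peak: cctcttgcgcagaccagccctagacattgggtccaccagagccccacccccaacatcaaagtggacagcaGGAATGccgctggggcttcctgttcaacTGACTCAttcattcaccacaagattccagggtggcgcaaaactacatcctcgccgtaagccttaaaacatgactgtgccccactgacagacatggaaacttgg

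COL13A1 (chr10:69801880-69964275, forward strand), which encodes the transmembrane collagen XIII, had the second strongest peak of the 10 genes. It lay 32.3 kb upstream of the gene (chr10:69769406-69769708) with a signal value of 315.2, rank 649, in the upper 3.07% of the list. The other peak, in intron 2 (chr10:69838873-69839316), was nearer to a TSS of the gene, at 16.7 kb, with a signal value of 66.2. No other protein-coding gene had a window that held either summit. The window of the strongest peak (chr10:69769450-69769650) again held both sequences close to the summit, with AP-1 centred 3 bp and the TEAD core 11.5 bp away.
COL13A1, strongest peak: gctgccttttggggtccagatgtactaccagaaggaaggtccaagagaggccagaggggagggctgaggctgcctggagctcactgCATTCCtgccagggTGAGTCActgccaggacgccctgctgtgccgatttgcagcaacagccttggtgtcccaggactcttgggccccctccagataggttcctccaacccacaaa

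The same motifs were counted in the 201 bases around all 27 summits, on both strands. The full TEAD motif was found in 2 peaks (7.41%, interval 2.06 to 23.4%), those of COL8A1 and COL12A1 named above, and in 23% of the whole list, which lay near the upper end of that interval. The 6-base core was found in 10 (37.0%, interval 21.5 to 55.8%), against 46.8% of the list. In 8 of these 10 the core stood without the full motif (29.6%, interval 15.9 to 48.5%, list 23.8%). Each of the 8 held a core with a G in front, GCATTCC. This sequence was thus present in 8 of the 27 peaks (29.6%, interval 15.9 to 48.5%). In the list the share was 18.1%, which lay inside that interval. The question which base stands before the core was asked after these sequences had been seen. Within 50 bp of the summit the full motif was found in 2 peaks (list 20.1%) and within 250 bp in 3 (11.1%, list 28.0%). All 3 of the strongest peaks, at COL16A1, COL13A1 and COL6A3, held the core (list 46.8%), each as GCATTCC, and none held the full motif. These peaks were picked by their signal value, and the core share of equally strong peaks of the list was not counted.

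The AP-1 motif, bound by the FOS and JUN proteins, was found in 10 of the 27 peaks (37.0%, interval 21.5 to 55.8%), against 25.4% of the list, which lay inside that interval. The 10 were spread over COL6A3, COL7A1, COL12A1 and COL16A1 with 2 peaks each and COL8A1 and COL13A1 with 1 each, and COL8A2 had none. In 8 of the 10 a match lay within 50 bp of the summit (29.6%, list 17.2%). Both COL12A1 peaks with the motif, those in introns 2 and 58, held 2 copies, which 2.04% of the list did. No peak of the 27 held AP-1 together with the full TEAD motif (list 4.49%), and 3 held it with the core (11.1%, list 10.2%), at COL16A1, COL13A1 and intron 58 of COL12A1. Neither the core nor AP-1 was found in 10 peaks (37.0%, list 37.98%).

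The RUNX motif TGTGGTT was found in 2 peaks (7.41%, list 9.53%). They were the strongest of COL8A1, where it lay 38 bp from the summit beside the pair of TEAD motifs, and the intron 2 peak of COL8A2. The E-box CAGATG was found in 6 peaks (22.2%, interval 10.6 to 40.8%, list 16.7%), 3 of them at COL12A1 and the others at COL7A1, COL16A1 and COL13A1. The nearest peak of COL7A1 and the exon 10 peak of COL12A1 held 2 copies each. The GC content of the 27 windows ran from 27.9%, in intron 2 of COL12A1, to 65.7%, in intron 2 of COL8A2, with a median of 48.3% (list 44.8%). A match to these letters is a description of the sequence and not evidence of binding by a factor.

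The promoter sequences of the genes, 250 bases before to 50 after the start in RefSeq on GRCh38.p14, were searched as well. Of the 10 genes 7 had a promoter in that table, all except COL6A1, COL8A1 and COL14A1. None of the 7 held the full TEAD motif and none the AP-1 motif, which were present in 3.46% and 4.95% of the 35116 promoters of the table. Only at COL12A1 did a TEAD4 summit fall inside these bases, that of the peak 165 bp upstream of the canonical TSS, and there the match was to the core.

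The other collagens were counted by the same rule to place the 10 genes in their family. Of the 34 other collagen genes, 25 (73.5%) had a peak, with a median of 2 peaks per gene and 0.741 per 100 kb, against 3 and 1.72 for the 10. Over all protein-coding genes 56.2% had a peak, with medians of 1 and 0.666. The 11 fibrillar collagens, which make up the banded fibrils, all had a peak, with a median of 5 per gene and 2.12 per 100 kb. COL5A2 had 13, COL1A1 8, and COL1A2 and COL5A1 6 each. In the 51 fibrillar peaks, each counted once, the median signal value was 70.2, and the full TEAD motif was present in 12 (23.5%, interval 14.0 to 36.8%) against 2 of the 27 here. The intervals of these 2 shares overlapped. AP-1 was present in 13 of the 51 (25.5%, interval 15.5 to 38.9%), an interval that also overlapped that of the 10 genes.

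The closest relatives of the 10 genes were counted list by list. The other collagen VI chains, COL6A5 and COL6A6, had none. Of the 7 other FACIT genes 2 had a peak, COL9A1 and COL9A2 with 1 each (56.2% of all protein-coding genes had one). Among the 3 FACIT genes described here COL12A1 had 8, COL16A1 had 3 and COL14A1 had none. The 3 other transmembrane collagens all had a peak, 5 in total, beside 2 at COL13A1. Of the 7 basement membrane network and short-chain collagens 5 had a peak, led by COL4A2 with 13, COL4A1 with 12 and COL4A6 with 6. Some of these peaks lay in the windows of more than 1 gene, and the 7 genes held 26 different peaks. All 4 multiplexins and remaining collagens had a peak, led by COL15A1 with 14 and then COL18A1 and COL26A1 with 3 each.

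Of 14 receptors and binding partners of these collagens, 12 had a peak, 6 of them within 2.5 kb of a TSS. Over all protein-coding genes the shares were 56.2% and 16.6%. The median was 4 peaks per gene and 2.56 per 100 kb of window, against 1 and 0.666 over all protein-coding genes. ITGA1, the α1 chain of a collagen-binding integrin, had 17, its partner ITGB1 had 9 and ANTXR1, a cell surface receptor for collagen VI, had 8. The proteoglycan gene DCN and the integrin gene ITGA10 had none. In the 66 peaks of these partners, each counted once although some lay in several of their windows, the full TEAD motif and the AP-1 motif were each found in 17 (25.8%).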

How the data were processed

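TEAD4 ChIP-seq of LX-2 cells comprised 3 TEAD4 and 2 input samples. The authors mapped reads to hg38 with Chromap and applied the ENCODE IDR pipeline to replicates 1 and 3. The deposited list gives, for each peak, a score (scaled IDR), a signal value and a −log10 q-value as the authors' pipeline wrote them, meanings read here from the layout and values. A score of 830, the lowest, equals an IDR of 0.0100, and all 27 peaks had the highest −log10 q-value, 4.76. Depth per sample is unknown, and replicate 2 and the inputs were not analysed here. No column belonged to another series.

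Summits were assigned to genes of GENCODE release 44 with any TSS of the gene, and motif matches were sought in the hg38 sequence, on either strand, up to 100 bp from each summit. Shares have Wilson 95% intervals. Calculations used Python 3.11.15, numpy 2.4.6, pandas 2.3.3, scipy 1.17.1 and matplotlib 3.10.9, and the code was tested on simulated data.

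The genes, lists and motifs were chosen with earlier results of these data known. Named for each gene were its strongest peak, the one nearest a TSS, all within 2.5 kb of a TSS and all with a TEAD motif, and for other lists the 3 genes with most peaks. The remaining peaks were added after their values were seen. Printed sequences are those of the strongest peak of each gene, of the peak nearest a TSS where that lay within 2.5 kb, and of the peaks with a TEAD motif. Alternatives changed the distance, TSS set, peak set, assignment, motif and motif window.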

Additional observations from a re-analysis of the deposited data

How the results depend on the processing

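Counts and densities were taken as moved when they changed by more than 1.5 times, and motif shares and the median signal value when they left the 95% interval of the reported value, which is wide with 27 peaks. By these limits 4 of 74 alternatives to the summary values moved them and 70 did not. The 70 include settings that left every value unchanged. They also include values that reached a limit without passing it. These were 18 peaks with 10 kb, 2 genes with a promoter peak in place of 3, and a median signal value of 92.5. A q-value limit of 0.05 could not remove any of the 27 peaks, which all had the highest −log10 q-value. Merging overlapping peaks also changed no value. With 100 kb in place of 50 kb the 10 genes had 46 peaks in place of 27. With only peaks above the median signal value of the list they had 15, or 0.791 per 100 kb of summed window in place of 1.42. With CATTCC in place of ACATTCC the TEAD share was 37.0% in place of 7.41%. Within the limits, the TEAD share ran from 4% (without the gene bodies) to 13.3% (peaks above the median signal value). The AP-1 share ran from 29.6% within 50 bp of the summit (list 17.2%) to 51.9% within 250 bp (list 33.2%). With TGANTCA in place of the AP-1 motif it was 40.7% (list 33.7%). The median signal value ran from 69.5 to 92.5, the latter with only peaks above the median of the list. Of 90 alternatives for single genes, 17 moved the count by more than 1.5 times and 73 did not. COL6A1, COL6A2 and COL14A1 had no peak in any of them. Only the 100 kb setting could have given them one, because the others narrow the window or the list. With 10 kb in place of 50 kb there were 18 peaks, 6 genes had one (33.98% of all protein-coding genes) and COL6A3 had none, and with 100 kb 7 had one (72.0% of all). With 1 TSS per gene COL6A3 had 2 peaks and COL16A1 no promoter peak. Without COL12A1, a choice made after its values were seen, 19 peaks with a median signal value of 72.9 remained, and the TEAD and AP-1 shares were 5.26% and 42.1%.

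No paired analysis was possible because replicates are combined in the list and no result comes from a test. No replicate was left out in turn, and depth per sample is unknown.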

Other observations

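With a limit of 100 kb, 72.0% of all protein-coding genes had a peak. Each of the 7 genes with a peak had a further TEAD4 summit beyond the 50 kb limit and within 100 kb of a TSS. Other genes near these further summits were not examined. The nearest such summit to a TSS of COL7A1 lay 68.4 kb upstream (chr3:48663560-48663851) with a signal value of 245.5, higher than any of the 3 peaks counted for that gene. For COL8A1 it lay 61.0 kb upstream (chr3:99577401-99577611) with 90.8, also above the 3 counted for it. For COL8A2 it lay 91.5 kb away on the downstream side with 82.0, above its strongest counted peak of 73.9. At COL6A3, COL12A1, COL13A1 and COL16A1 the next summits lay 74.8, 61.9, 98.0 and 51.2 kb from a TSS, with signal values of 29.1, 37.0, 40.3 and 51.3, each below the weakest peak counted for its gene except at COL12A1, where 2 counted peaks with 29.1 and 34.3 were weaker. At COL7A1, COL8A1 and COL8A2 the ranking of the strongest peak thus depended on the distance limit, and at the other 4 genes with a peak it was the same with this next summit included. Summits farther out than this next one were not compared.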
